A study of Mus musculus with 24 samples.

Results

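Metallothioneins and zinc transport genes were followed in plantaris, a fast muscle of the mouse hindlimb, after long exposure to tobacco smoke. The members were the 5 genes Mt1, Mt2, Mtf1, Slc30a1 and Slc39a14, picked by symbol from the 47643 Ensembl genes of the deposited count table, and all 5 were found there. The study compared 2 groups of wild-type C57BL/6 mice, one in normal air (11 samples) and one that had 16 weeks of tobacco smoke (13 samples), and its title asks what chronic activity of the aryl hydrocarbon receptor (AhR), a receptor for smoke components, does to muscle. RNA came from frozen whole muscle and was read from its 3′ end with the Lexogen QuantSeq forward kit, so each value counts reads near the 3′ end of a transcript and is not divided by gene length. The age and sex of the mice, and whether each sample was 1 animal, are not given in the sources used here, so p-values measure the spread between samples.

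Metallothioneins are small cysteine-rich proteins that bind zinc and copper and also capture cadmium, a metal present in tobacco smoke. The zinc sensor MTF1 binds metal response elements in their promoters and in that of the zinc exporter gene Slc30a1, so that free zinc or cadmium usually raises these transcripts together. Glucocorticoids, inflammatory cytokines and oxidative stress also act on metallothionein genes, and in muscle they are known from wasting states. Transporters of the SLC30 family move zinc out of the cytosol, whereas those of the SLC39 family move it in.

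The promoters of the 3 members with a match to the metal response element core are shown first, because MTF1 binds such elements. Whether the marked letters act in induction by metals was not tested. The sequences are the 250 bases before the start site annotated by RefSeq (GRCm38.p6), all on the plus strand, 5′ to 3′. Capitals mark each core, searched as TGCACNC or TGCGCNC on both strands.
Mt1, chr8:94178839-94179088: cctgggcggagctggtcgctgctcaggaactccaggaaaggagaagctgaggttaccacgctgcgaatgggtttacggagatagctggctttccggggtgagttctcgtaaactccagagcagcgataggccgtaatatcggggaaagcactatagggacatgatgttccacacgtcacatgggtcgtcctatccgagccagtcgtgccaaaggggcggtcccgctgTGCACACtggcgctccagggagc
Mt2, chr8:94172368-94172617: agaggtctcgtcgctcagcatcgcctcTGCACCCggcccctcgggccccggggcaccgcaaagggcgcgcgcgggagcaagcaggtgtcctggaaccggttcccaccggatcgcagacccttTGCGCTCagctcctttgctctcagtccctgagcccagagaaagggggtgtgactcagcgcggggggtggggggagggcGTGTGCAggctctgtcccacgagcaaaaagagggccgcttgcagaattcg
Slc30a1, chr1:191906531-191906780: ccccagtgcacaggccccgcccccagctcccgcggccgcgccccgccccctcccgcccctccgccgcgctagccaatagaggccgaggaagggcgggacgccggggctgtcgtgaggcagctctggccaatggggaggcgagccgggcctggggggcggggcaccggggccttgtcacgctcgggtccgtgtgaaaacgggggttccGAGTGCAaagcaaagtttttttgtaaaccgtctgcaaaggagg
Over the full RefSeq window, which also takes in the first 50 bases after the start, Mt2 held 4 cores, Mt1 held 3 and Slc30a1 held 2. Mtf1 held 0 in its window, and Slc39a14 had no entry in the table. These counts hold for the RefSeq starts and depend on them. In the GENCODE M21 annotation Mtf1 begins at base 124802104, upstream of the 250 bases searched before its RefSeq start (124802299 to 124802548). Of all 32851 promoter windows, 25.7% held at least 1 core and 1.97% held 3 or more. In Mt1 the core TGCACAC began at position −23 from the start, and TGCACTC and TGCGCTC began at positions 3 and 21 after it. In Mt2 the cores before the start began at positions −223, −128 and −50. The core at −50 shares letters with GCGTG, the core of the dioxin response element through which AhR acts, which was searched on both strands. Mt1 and Slc30a1 each held 1 copy of GCGTG on the minus strand, which overlapped no metal response element core, Mt2 held 2 and Mtf1 held 0, against 32.4% of all windows with at least 1. These matches describe letters only, and no binding was measured.

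No member passed the test for a difference between smoke and air, and the 95% interval of each of the 4 tested members included 0. Of the 5, 4 passed the expression filter and 0 were called at an adjusted p under 0.05, against 1.92% of the 10159 genes tested. Mt1 and Mt2, the metallothioneins found in most tissues, had fold changes of 1.06 and 1.13. The sensor Mtf1 and the exporter Slc30a1 had fold changes of 0.970 and 1.03. Levels below are in CPM, the usual scaling of counts to a common library total (TMM-scaled here), and fold changes are smoke against air.

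Mt2, on chromosome 8 next to Mt1, was the most abundant member. In air its level was lowest at 44.3 CPM, had a median of 52.0 CPM and was highest at 86.1 CPM. In smoke it was lowest at 42.4 CPM, had a median of 62.9 CPM and was highest at 97.3 CPM. The highest values came from air replicate 6 and smoke replicate 2, and 11 of 13 smoke samples lay within the air range. The means were 55.6 ± 12.3 CPM (SD, n = 11) in the air group and 62.8 ± 13.5 CPM (SD, n = 13) in the smoke group. Its log2 fold change was 0.18 (SE 0.11, 95% interval −0.035 to 0.40, edgeR quasi-likelihood test, Benjamini-Hochberg adjusted p = 0.436). Smoke samples were above the air mean in 9 of 13. Among the 4 tested members Mt2 had the largest fold change, and the bounds of its interval as a fold were 0.976 and 1.32.

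Mt1 had a level in air of 26.7 CPM at the lowest, 36.8 CPM at the median and 43.9 CPM at the highest. In smoke its level was 25.2 CPM at the lowest, 38.7 CPM at the median and 50.9 CPM at the highest. The groups overlapped over most of their range, with 9 of 13 smoke samples inside the air range, 3 above it and 1 below it. The means were 35.4 ± 5.45 CPM (SD, n = 11) in the air group and 37.4 ± 7.98 CPM (SD, n = 13) in the smoke group. The log2 fold change was 0.085 (SE 0.10, 95% interval −0.12 to 0.29, edgeR adjusted p = 0.754). Mt1 and Mt2 are related copies, and how reads that match both were counted is not given in the sources used here.

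**Figure D1:**
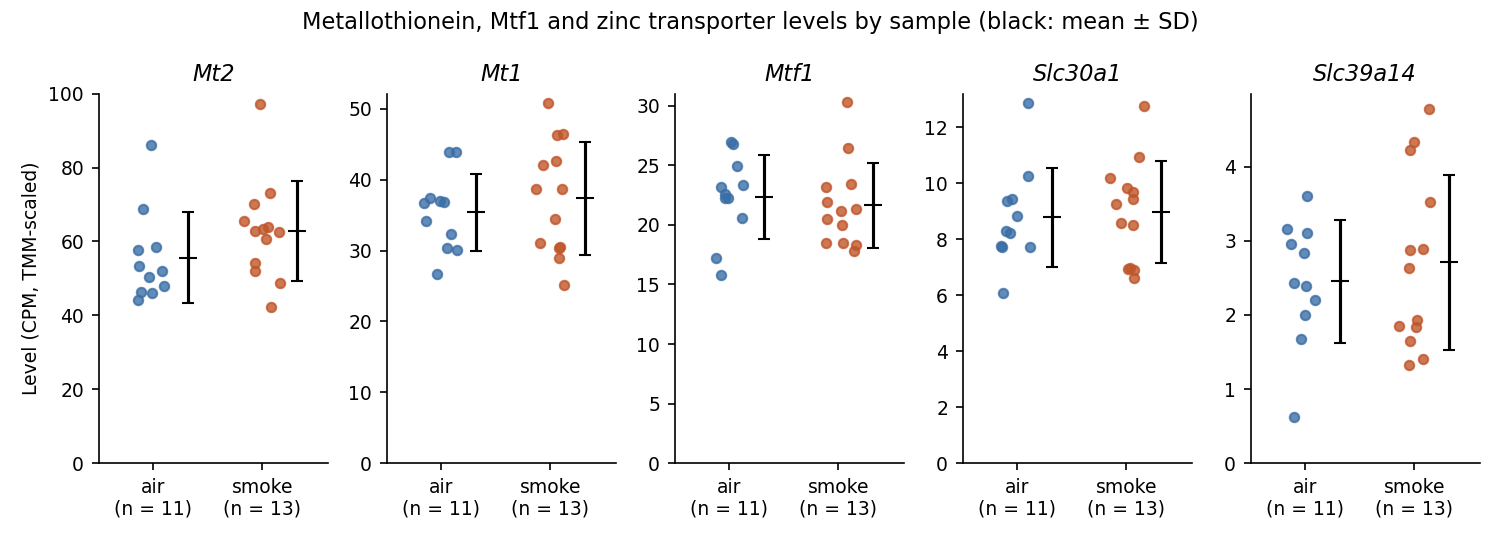
Levels of the 5 members in CPM (vertical axes, each starting at 0) for every air and smoke sample (points), with the mean ± SD in black. The groups overlap for each gene, and 11 of 13 smoke samples for Mt2, 9 of 13 for Mt1 and 10 of 13 for Slc39a14 are inside the air range.

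Mtf1 encodes the zinc-sensing transcription factor itself. Its level ran from 15.8 to 27.0 CPM in air with a median of 22.6 CPM, and from 17.8 to 30.3 CPM in smoke with a median of 21.1 CPM. All but 1 smoke sample lay in the air range, and the lowest sample of all was air replicate 8. The means were 22.4 ± 3.49 CPM (SD, n = 11) in the air group and 21.7 ± 3.58 CPM (SD, n = 13) in the smoke group. The log2 fold change was −0.043 (SE 0.096, 95% interval −0.24 to 0.15, edgeR adjusted p = 0.886).

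Slc30a1 encodes the exporter that carries zinc out across the plasma membrane. Its level ran from 6.07 to 12.9 CPM in air with a median of 8.30 CPM, and from 6.60 to 12.8 CPM in smoke with a median of 9.24 CPM. All 13 smoke samples lay inside the air range, and replicate 2 was the highest in both groups. The means were 8.77 ± 1.76 CPM (SD, n = 11) in the air group and 8.96 ± 1.82 CPM (SD, n = 13) in the smoke group. The log2 fold change was 0.046 (SE 0.13, 95% interval −0.21 to 0.30, edgeR adjusted p = 0.912).

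Slc39a14 encodes ZIP14, an importer of zinc and other metals that inflammatory signals induce in liver. It was too low for the expression filter, with 96 counts in all over 11 air samples and 118 over 13 smoke samples. Its level ran from 0.630 to 3.61 CPM in air and from 1.33 to 4.78 CPM in smoke, with medians of 2.43 and 2.64 CPM. The lowest sample was air replicate 11 with 2 counts, and 3 smoke samples exceeded the highest air sample. Since 3 counts are worth 0.665 to 1.15 CPM depending on the library, a small difference was not detectable at this depth. In a fit with no expression filter its log2 fold change was 0.10 (SE 0.26, edgeR adjusted p = 0.894).

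On the CPM scale of this 3′-end assay the order of the levels was Mt2, Mt1, Mtf1, Slc30a1 and Slc39a14 in both groups. Mt2 was above Mt1 in all 11 air and all 13 smoke samples, and the ratio of Mt2 to Mt1 was 1.58 ± 0.275 (SD, n = 11) for air libraries and 1.71 ± 0.308 (SD, n = 13) for smoke libraries. Mt1 was above Mtf1 in all 11 air samples and in 12 of 13 smoke samples, and the levels were equal in the other one, smoke replicate 3 (30.3 CPM each). Mtf1 was above Slc30a1, and Slc30a1 above Slc39a14, in every sample. Across samples of the same group the ranges of Mt2 and Mt1 overlapped in smoke, where the highest Mt1 level (50.9 CPM) exceeded the lowest Mt2 level (42.4 CPM), and came near each other in air (43.9 against 44.3 CPM). The ranges of Mt1 and Mtf1 also met in both groups.

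The spread of the tested members among samples lay around that of other genes. The biological coefficient of variation that edgeR estimated, which leaves counting error out, was 15.4% for Mt1, 17.2% for Mt2, 12.3% for Mtf1 and 12.5% for Slc30a1, beside a median of 14.9% over all tested genes. The observed coefficient of variation of Mt2 was 22.2% in air and 21.4% in smoke, where counting error alone would give 7.21% and 6.82%. For Mt1 it was 15.4% in air and 21.3% in smoke, against 9.00% and 8.81% from counting. For Mtf1 it was 15.6% in air and 16.5% in smoke, against 11.3% and 11.6% from counting. Slc30a1 varied by 20.0% in air and 20.3% in smoke, against 18.1% and 18.0% from counting. Slc39a14 varied by 33.8% in air and 43.6% in smoke, against 33.9% and 33.2% from counting.

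Mt1 and Mt2 varied together among smoke samples by rank. In smoke (n = 13) Spearman's rho between them was 0.83 (permutation p = 0.00076, adjusted p = 0.00912) and Pearson's r was 0.65 (permutation p = 0.0134, adjusted p = 0.161). Each measure was adjusted on its own over the 12 relations computed, not over both measures together, and only the rank correlation passed. Without smoke replicates 4 and 12, the samples farthest from the Mt1 median on the log2 scale, r was 0.52. In air (n = 11) r was 0.52 (permutation p = 0.104, adjusted p = 0.565) and rho was 0.39 (permutation p = 0.238, adjusted p = 0.572), and whether the groups differ in this relation was not tested. Air replicate 6 held the highest level of both genes in air, and without it r there was 0.26. Smoke replicate 2 stood above the others in Mt2, at 97.3 CPM, with an Mt1 level of 42.1 CPM. The other 10 relations among Mt1, Mt2, Mtf1 and Slc30a1 had r between −0.36 and 0.39, and all missed the threshold, with adjusted permutation p-values of r between 0.565 and 0.970.

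**Figure D2:**
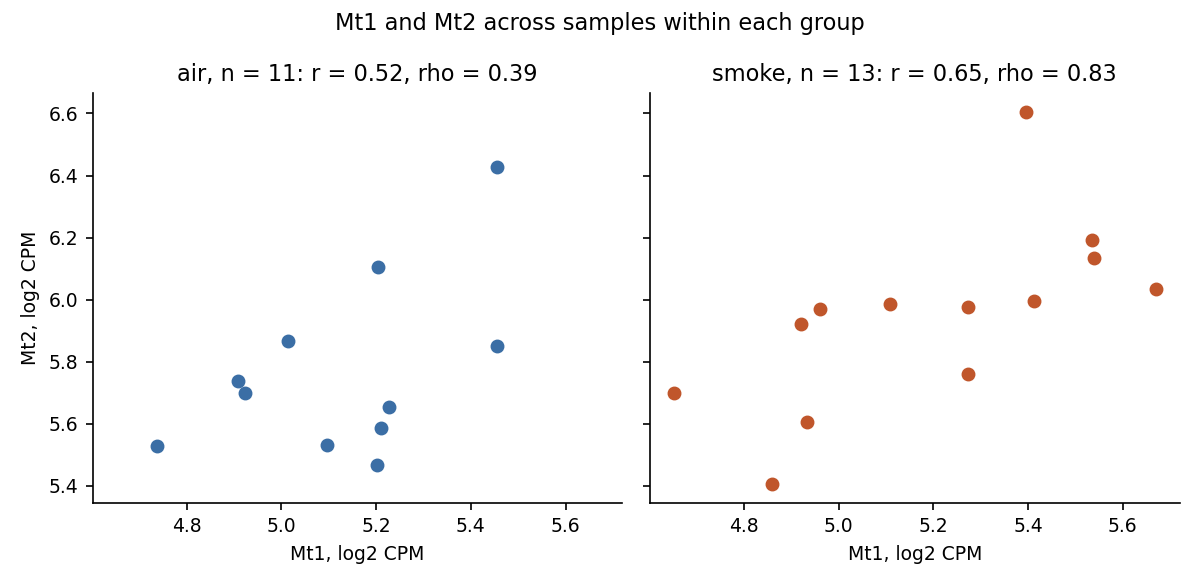
Mt1 (horizontal axis) against Mt2 (vertical axis), both as log2 CPM, with 1 point per sample for 11 air samples (left) and 13 smoke samples (right). The rank correlation was 0.83 in smoke and 0.39 in air, and 1 smoke sample lies high in Mt2.

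After removing the group means, Mt1 and Mt2 correlated at r 0.60 over 24 samples, a description in which both groups and the library scaling are shared. Mt2 ranked 36th of 10158 genes by likeness to Mt1, and Mt1 ranked 51st by likeness to Mt2. The 5 genes most like Mt1 were Hk1 (hexokinase 1), Cacna1e (a calcium channel), Srrm3 (a splicing regulator), Cdo1 (cysteine dioxygenase, which breaks down cysteine) and Piezo2 (a touch-sensing ion channel), at r 0.72 to 0.68. Those most like Mt2 were Apoe (apolipoprotein E), Pbx3, Metrnl, Sfxn5 and Gnai1, at r 0.72 to 0.71. Mtf1 was most like Enpp4, E130308A19Rik, Clec2d, Rab12 and Elp3, at r 0.71 to 0.65. Slc30a1 was most like Marveld1, Chtf8, Cyb561d1, Tiprl and Ctnna3, at r 0.75 to 0.64. Mtf1 itself stood at r −0.22 with Mt1 and −0.20 with Mt2.

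Markers of other cells varied with some members across samples. Of the 5 adipocyte markers, Adipoq, Plin1, Cidec and Cfd had r of 0.52, 0.37, 0.45 and 0.63 with Mt1 and of 0.62, 0.43, 0.42 and 0.59 with Mt2, while Fabp4 had −0.20 and −0.11. The neutrophil markers S100a8 and S100a9 had r of 0.40 and 0.50 with Mt1 and of 0.55 and 0.64 with Mt2, and the other 3 neutrophil markers did not pass the filter. Air replicate 6, the air library highest in Mt1 (43.9 CPM) and Mt2 (86.1 CPM), stood apart in both, with 30.1 CPM of S100a8 and 25.6 CPM of S100a9 beside air medians of 4.67 and 4.00 CPM. Without it their r was 0.32 and 0.46 with Mt1 and 0.29 and 0.46 with Mt2, and that of Fabp4 with Mt2 was 0.0064. Without smoke replicate 2, the library highest in Mt2, the r of Plin1 with Mt2 was 0.27. Without air replicate 1 the r of Fabp4 was −0.51 with Mt1 and −0.0091 with Slc30a1. With Slc30a1 all 5 adipocyte markers had a positive r, from 0.12 to 0.46. With Mt2 so did all 5 markers of Schwann cells and myelin, from 0.30 to 0.48. Of all 10158 other tested genes, 5034 had a positive r with Slc30a1 and 5193 with Mt2. The r of Adipoq and Cfd with Slc30a1 was 0.26 and 0.14 without smoke replicate 2, and 0.53 and 0.43 without smoke replicate 10. With Mt1 the Schwann cell and myelin markers had r from −0.021 to 0.35, with 4 of 5 positive. The 3 tested macrophage markers had r from 0.16 to 0.27 with Mt1 and from 0.082 to 0.17 with Mt2. With Mtf1 the r was negative for all 5 adipocyte markers, from −0.36 to −0.14, and all 5 Schwann cell and myelin markers, from −0.45 to −0.12. Of all 10158 other tested genes, 5099 had a positive r with Mtf1. The r of Adipoq with Mtf1 was −0.045 without smoke replicate 2 and −0.29 without air replicate 8. That of Fabp4 with Mtf1 was −0.060 without air replicate 11 and −0.26 without air replicate 9. S100a8 and S100a9 had r of 0.013 and −0.013 with Slc30a1. The summed level of the 5 adipocyte markers ran from 1175 to 2695 CPM in air and from 1430 to 2612 CPM in smoke, with 0 of 5 called. The part of these cell types in the shared variation of Mt1 and Mt2 was not tested. In whole muscle, fewer cells of a type and less RNA per cell cannot be told apart.

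Among the wider zinc genes, listed by family, none was called either. Of 10 SLC30 and 14 SLC39 genes, 12 passed the filter and 0 were called, near the background of 1.92% over all tested genes, 6 with a positive and 6 with a negative log2 fold change. The 6 tested SLC30 genes had a median log2 fold change of 0.053 and the 6 tested SLC39 genes one of −0.046, beside 0.0066 over all 10159 tested genes. The central 95% of all tested genes lay between −0.37 and 0.45 on the log2 scale, and every tested metallothionein, metal factor and zinc transporter gene lay inside it.

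**Figure D3:**
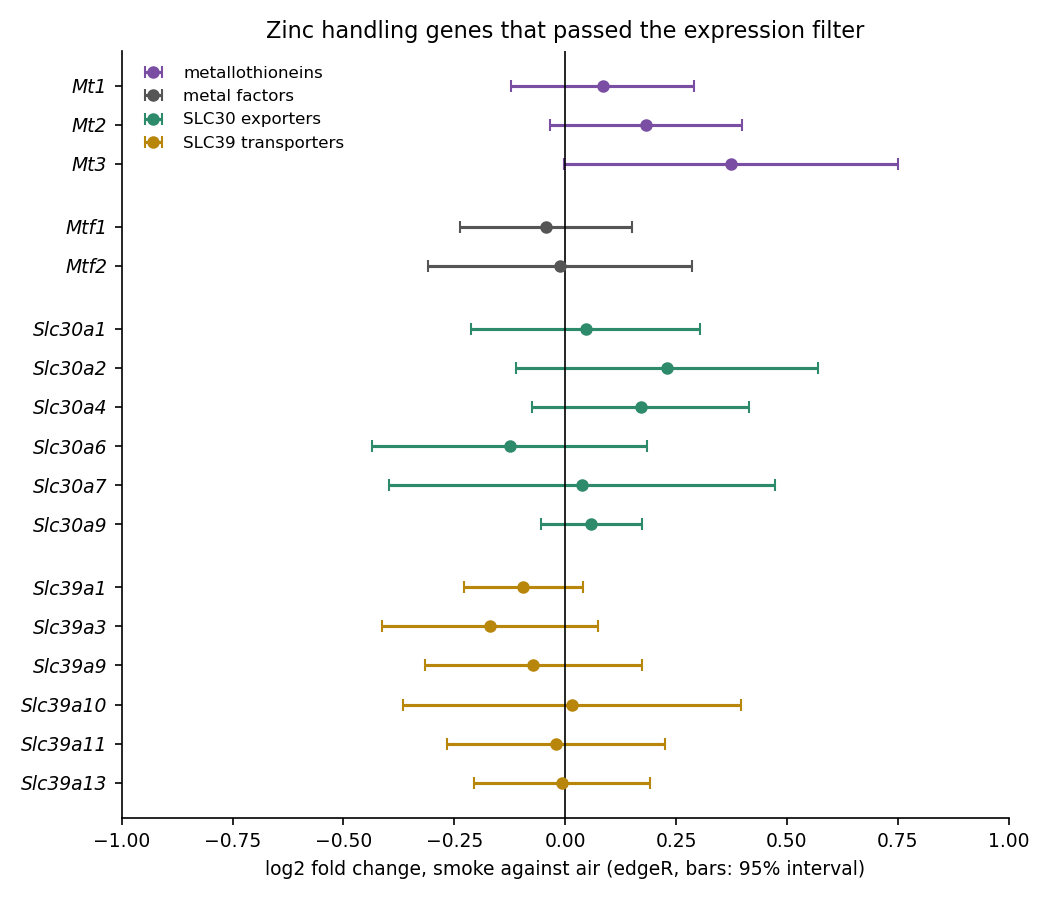
Log2 fold changes of smoke against air (horizontal axis) with 95% intervals from the edgeR fit for the 17 metallothionein, metal factor, SLC30 and SLC39 genes that passed the filter. Every interval includes 0, and that of Mt3 reaches farthest, from −0.0034 to 0.75.

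By p-value among the 12 transporters that passed the filter, the leading one with a positive difference was Slc30a4, which loads zinc into vesicles. It had 10.6 ± 1.92 CPM in air and 11.9 ± 2.33 CPM in smoke (edgeR p = 0.167, adjusted p = 0.540). It was followed by Slc30a2, another vesicular transporter, at a log2 fold change of 0.23 (adjusted p = 0.558), and by Slc30a9, at 0.059 (adjusted p = 0.680). On the negative side Slc39a1, a plasma membrane importer found in most tissues, had 75.4 ± 5.23 CPM in air and 70.6 ± 9.11 CPM in smoke (edgeR p = 0.161, adjusted p = 0.533). Slc39a3, a related importer, followed at a log2 fold change of −0.17 (adjusted p = 0.537), and Slc30a6 at −0.12 (adjusted p = 0.758). Slc30a9 (82.1 ± 7.26 CPM in air, 85.5 ± 6.39 CPM in smoke) and Slc39a1 were the most abundant of the families, and Slc30a9 bounded a difference most tightly, at a log2 interval of −0.055 to 0.17. The other 12 transporters were below the filter. Among them Slc30a8, the zinc transporter of insulin granules, and Slc39a5 had 0 counts in every library. Slc30a3, also below the filter, had 49 counts in all over 11 air samples and 86 over 13 smoke samples. In the fit with no expression filter its log2 fold change was 0.59 (SE 0.32, edgeR p = 0.0667, adjusted p = 0.507).

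**Figure D4:**
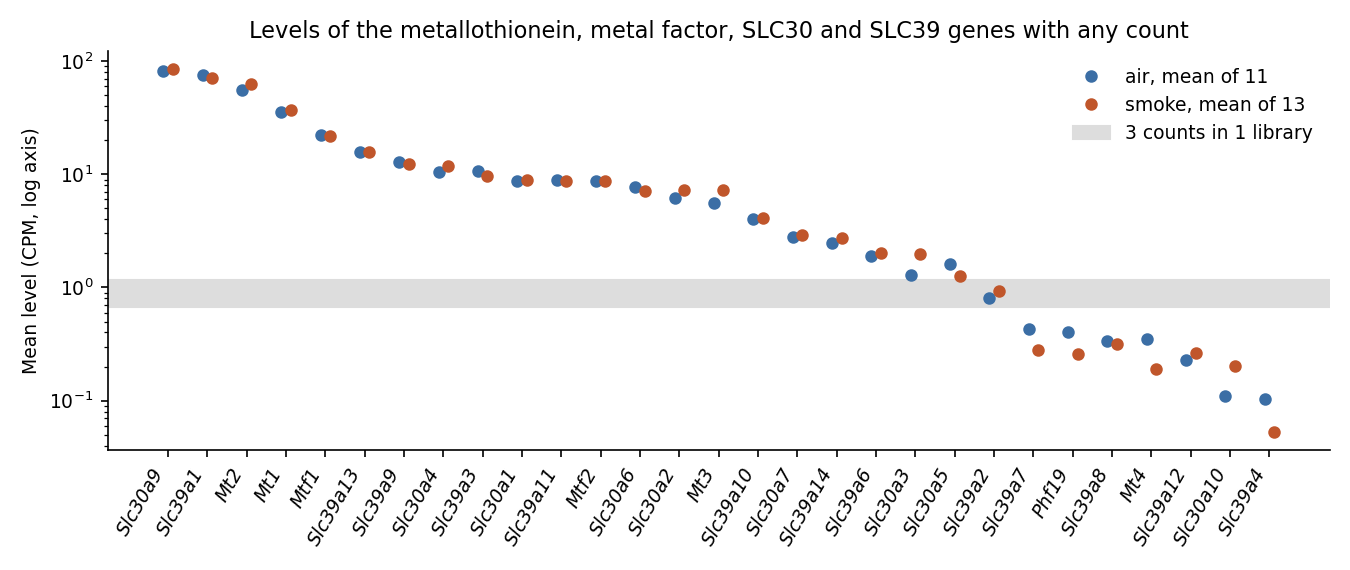
Mean levels in air and smoke (CPM, log axis) of the metallothionein, metal factor, SLC30 and SLC39 genes with any count, in order of level. The grey band is what 3 counts are worth in a library (0.665 to 1.15 CPM on the same scale), and Slc30a9, Slc39a1, Mt2 and Mt1 stand at the top.

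Other pathways that act on metallothionein genes or share their metals were described by list. Of 10 tested copper handling genes 0 were called, with a median log2 fold change of −0.021, where 1.92% of all tested genes were called, so that 0 in a list of this length is near the background. Of 7 tested genes of the interleukin-6 and STAT3 response 0 were called, with a median of 0.15 and the largest value at 0.28 for Osmr (edgeR adjusted p = 0.241), a receptor for an interleukin-6 type cytokine. Of 5 tested ubiquitin ligase genes of muscle atrophy 0 were called, with a median of −0.10 and all 5 below 0. Trim63, a ligase that marks sarcomere proteins for breakdown, was at −0.33 (edgeR adjusted p = 0.0568) and was lower than the mean of air in 13 of 13 smoke samples. DESeq2 (adjusted p = 0.0417), edgeR without the expression filter (adjusted p = 0.0200) and 6 of 24 edgeR fits that left out 1 sample called it, while RLE scaling (adjusted p = 0.0560), limma-voom (adjusted p = 0.0737) and the replicate block (adjusted p = 0.124) did not.

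In the oxidative stress list 2 of 7 tested genes were called, both lower, where 1.19% of all tested genes were called lower. Srxn1, which repairs oxidised peroxiredoxins, fell from 38.3 to 25.7 CPM (log2 fold change −0.57, SE 0.11, edgeR adjusted p = 0.00270). Nqo1, a quinone reductase driven by both NRF2 and AhR, fell from 18.1 to 13.3 CPM (log2 fold change −0.44, SE 0.10, edgeR adjusted p = 0.0140). With the replicate block Nqo1 was not called (edgeR adjusted p = 0.0504). Of 16 tested glucocorticoid-responsive genes 1 was called, Pdk4, a kinase that curbs pyruvate oxidation, which fell from 5.32 to 2.36 CPM (log2 fold change −1.14, SE 0.27, edgeR adjusted p = 0.0165). The median of that list was −0.11, and Fkbp5, a standard glucocorticoid target, was at 0.40 (edgeR adjusted p = 0.114), while Zbtb16, another such target, was at −0.38 (edgeR adjusted p = 0.114). The summed level of the list ran from 709 to 1261 CPM in air (median 791) and from 752 to 940 CPM in smoke (median 844).

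**Figure D5:**
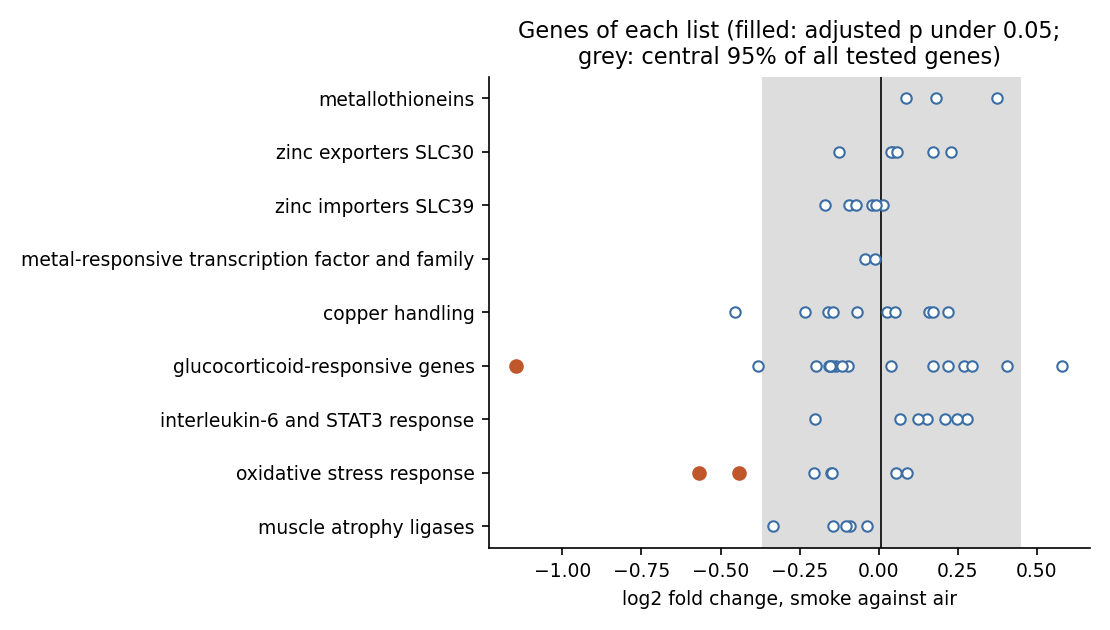
Log2 fold changes of smoke against air (horizontal axis) for the tested genes of each list, with filled points for genes called at an adjusted p under 0.05 and a grey band for the central 95% of all tested genes. Filled points appear for Pdk4, Srxn1 and Nqo1 alone, and none for metallothioneins or zinc transporters.

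Total counts were 2515697 to 4528845 per library, and air and smoke libraries had means of 3529309 and 3461143. The 8 muscle fibre markers were present in every library, at a summed level of at least 128100 CPM. Of the 5 markers of Schwann cells and myelin 3 were called higher in smoke, where 0.728% of all tested genes were called higher, and of the 5 red blood cell markers 3 were called lower, against 1.19% of all tested genes. Of the fibre markers 1 of 8 was called, Mb (myoglobin), lower by a log2 change of −0.36 (adjusted p = 0.00107, edgeR). The part of these cell types in the values above was not tested. In the file headers all smoke libraries precede all air libraries by sheet number, so an effect of sheet order and one of smoke cannot be told apart.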

How the data were processed

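The authors deposited raw read counts per Ensembl gene, 1 column per sample, made from QuantSeq 3′ libraries read on lane 6, per the file headers. The submitters' processing notes name STAR, DESeq2 and the build mm9 without roles; the counting tool, its annotation, its use of strand and any removal of PCR copies are not given in the sources used here, and floors cover counting error only. Symbols came from GENCODE M21 and matched 99.1% of IDs. That annotation and the RefSeq promoters are on GRCm38, so coordinates are theirs and none were taken from the counts. On it Mt2 overlaps Gm45774, Mtf1 overlaps 1110065P20Rik and Slc30a1 overlaps 1700034H15Rik, each on the opposite strand, and Mtf1 overlaps n-R5s192 on the same strand, so reads of these pairs are uncertain.

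Counts of all genes were tested with edgeR 4.0.16 in R 4.3.3 (filterByExpr with a minimum count of 10, TMM scaling, quasi-likelihood F-test on 24 samples with no covariate, Benjamini-Hochberg over all 10159 tested genes). The 95% intervals use the standard error and degrees of freedom of that test. Relations between members used log2 CPM with a prior count of 2 and two-sided permutation tests with 100000 resamples, adjusted over 12 relations for each measure separately. Named genes are the members, the 3 zinc transporters with the smallest p in each direction, the 5 genes most like each tested member, and called genes of the other lists. Osmr, Fkbp5, Zbtb16, Trim63, Slc30a3, Slc30a8, Slc39a5, Mt3 with the 5 genes most like it, Mt4, Mb and the adipocyte and neutrophil markers were named after their values were seen. The members and lists were chosen with earlier results of these data known. Alternatives were RLE scaling, DESeq2 1.42.0, limma-voom 3.58.1, no expression filter, the replicate number as a block, a prior count of 0.5, a shorter promoter window, and leaving out each sample in turn; the last, for correlations of Mt1 with Mt2 and of members with markers, was chosen after seeing the data. The test was checked on simulated counts. No pair of libraries within a group agreed within sampling noise (133 pairs, chi-square per gene 2.52 to 18.6), and none was left out.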

Additional observations from a re-analysis of the deposited data

How the results depend on the processing

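Mt1, Mt2, Mtf1 and Slc30a1 kept their direction under RLE scaling, DESeq2, limma-voom, no expression filter and the replicate block, and none of these 4 genes was called by any of them. Log2 fold changes ranged from 0.076 to 0.11 for Mt1, 0.17 to 0.20 for Mt2, −0.052 to −0.034 for Mtf1 and 0.011 to 0.056 for Slc30a1, and the smallest adjusted p was 0.298, for Mt2 with the block. When samples were left out in turn the ranges were 0.043 to 0.12, 0.11 to 0.26, −0.094 to −0.014 and −0.0035 to 0.11. Slc30a1 thus changed sign in 2 of 24 such fits, its lowest value being that without smoke replicate 2, and the smallest adjusted p was 0.179. Slc39a14 was fitted only without the expression filter. No listed metallothionein, metal factor or zinc transporter was called in any of these fits (0 genes in each). When samples were left out in turn, the median log2 fold change ran from 0.018 to 0.082 for SLC30 genes. That of SLC39 genes ran from −0.092 to −0.032. With the replicate block these medians were 0.026 and −0.044.

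Over all genes, DESeq2 called 323 against 195, and leaving out samples gave 141 to 254; the cause was not tested. Replicate numbers occur in both groups, but nothing in the labels ties samples of the same number together. Deviations from the groups correlated above 0.1 in 4 of 11 same-numbered pairs and in 18 of 132 other pairs of air with smoke. The mean r was −0.0059 for same-numbered pairs and 0.0011 for the others, and whether samples were paired was not tested. Blocking on the replicate number (22 samples) gave 138 called genes without Nqo1 (log2 fold change −0.46 beside −0.44 without the block, adjusted p = 0.0504), and the log2 fold changes were 0.11 for Mt1, 0.20 for Mt2, −0.034 for Mtf1 and 0.011 for Slc30a1. The rank correlation of Mt1 and Mt2 in smoke stayed between 0.80 and 0.86 without each sample (permutation p adjusted over the 12 rank correlations alone, 0.00912 to 0.0346). In the upstream 250 bases alone, metal response element cores numbered 1 in Mt1, 3 in Mt2 and 1 in Slc30a1. Depth limits what can be seen of Slc39a14 and of the transporters below the filter.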

Other observations

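The other 2 metallothionein genes lie beside Mt1 and Mt2 on chromosome 8. Mt3, best known from brain, had 12 to 36 counts in every library, at 5.62 ± 1.73 CPM (SD, n = 11) in the air group and 7.31 ± 2.55 CPM (SD, n = 13) in the smoke group. It had the largest fold change of the tested metallothioneins, 1.30 (log2 0.37, SE 0.19, edgeR p = 0.0520, adjusted p = 0.328), with 10 of 13 smoke samples above the air mean, and it was not called. The genes most like Mt3 over 24 samples after removing group means were Rbfox3 (the neuronal nuclear protein NeuN), Hap1, Ripor2, Nat8l and Prkar1b, at r 0.75 to 0.73, and Mt3 stood at r 0.48 with Mt1.

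Mt4, a metallothionein of stratified epithelium, had 0 counts in 10 of 11 air and 10 of 13 smoke libraries. It had 11 counts in air replicate 2, 5 in smoke replicate 2, 3 in smoke replicate 7 and 1 in smoke replicate 9. Replicate 2 of smoke was also the highest smoke sample for Mt2, at 97.3 CPM.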
